A study of Homo sapiens with 18 samples.

Results

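The genes of the cytoplasmic ribosomal proteins were followed through RNA-seq libraries of NCI-H1299, a human lung cancer cell line, in which 1 of 4 T-box factors (TBX2, TBX3, TBX4 or TBX5) was transiently overexpressed. Members were the protein-coding genes on the autosomes and the X chromosome whose symbol is RPL or RPS followed by a number, with or without a closing letter, plus RPLP0, RPLP1, RPLP2 and RPSA, and without the RPS6K kinase genes. This rule found 84 genes among the 63677 of the count table, 52 of the large and 32 of the small subunit. Of these, 77 carry the standard name of a ribosomal protein and 7 are paralogues marked with an extra L, namely RPL3L, RPL7L1, RPL10L, RPL22L1, RPL26L1, RPL39L and RPS27L. The rule itself uses no measured value, but members were chosen with earlier results of these data known.

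All cells were NCI-H1299 at passages 12 to 14. There were 3 libraries for each of 6 groups: cells labelled Ctl, whose treatment the labels do not give, cells given an empty vector (EV), and cells given a plasmid for TBX2, TBX3, TBX4 or TBX5. According to the study's methods, TBX2 and TBX4 were human, Flag-tagged and in a pORF plasmid, TBX3 was human, HA-tagged and in pCGN, and Tbx5 was the mouse gene, HA-tagged and in pCGN, and only part of the cells took up a plasmid. TBX2 and TBX4 thus share a backbone and tag, as do TBX3 and Tbx5, while between these pairs TBX cannot be told apart from backbone and tag. The third TBX4 library has a title that opens with the number of the TBX4 group but ends in TBX5, and it was kept with TBX4; the values without it are given beside the TBX4 results. No label says that replicates came from separate cultures, so p-values measure the spread between libraries, which may be technical.

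A ribosome is built from a large subunit, which joins amino acids, and a small subunit, which reads the mRNA, and each holds 1 copy of nearly every one of its proteins. The mRNAs of these proteins begin with a C followed by an unbroken run of C and T, the 5′ terminal oligopyrimidine (TOP) tract, through which LARP1 and the mTOR kinase control their translation together. The mRNAs are among the most abundant of growing cells. The T-box factors bind DNA through the T-box domain and act in the developing lung, TBX2 and TBX3 mostly as repressors and TBX4 and TBX5 mostly as activators.

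The shared start of these genes is shown here because it is the sequence feature that ties the members together and that most of the L paralogues lack. RefSeq windows of 250 bases before to 50 bases from each gene's start (GRCh38.p14) were matched by symbol for 67 of the 84 members, 11 of them with more than 1 window. A C followed by at least 4 bases of C or T, within 5 bases of the start, was found in at least 1 window of 53 of the 62 standard members and of 1 of the 5 paralogues with a window, RPL22L1. Over all 35116 RefSeq windows, 21.1% held such a tract, against 69.9% of the 83 windows of members. The 30 bases around the start (10 before, 20 from it on) are printed 5′ to 3′ for members that recur below and for 3 paralogues, with the tract in capitals.
RPL7A (chr9:133348208-133348237, + strand): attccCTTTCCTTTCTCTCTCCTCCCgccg
RPL22 (chr1:6199576-6199605, - strand): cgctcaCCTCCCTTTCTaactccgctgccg
RPL41 (chr12:56116623-56116652, + strand): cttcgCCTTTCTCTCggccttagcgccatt
RPLP0 (chr12:120201092-120201121, - strand): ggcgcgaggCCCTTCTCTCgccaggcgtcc
RPS3 (chr11:75399508-75399537, + strand): cgagccaCTTCCTTTCCTTTCagcggagcg
RPS12 (chr6:132814559-132814588, + strand): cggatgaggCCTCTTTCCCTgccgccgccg
RPS24 (chr10:78033853-78033882, + strand): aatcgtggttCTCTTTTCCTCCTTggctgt
RPS27 (chr1:153990752-153990781, + strand): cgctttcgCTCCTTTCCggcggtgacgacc
RPS15 (chr19:1438386-1438415, + strand): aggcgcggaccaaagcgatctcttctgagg
RPL22L1 (chr3:170870176-170870205, - strand): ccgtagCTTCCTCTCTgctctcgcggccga
RPL7L1 (chr6:42879606-42879635, + strand): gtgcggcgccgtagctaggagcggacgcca
RPS27L (chr15:63157458-63157487, - strand): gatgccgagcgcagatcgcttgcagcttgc
The tract was 5 to 22 bases long where it was found, with a median of 11, and RPS15, RPL7L1 and RPS27L had none in reach of the annotated start. A tract was marked from no more than 5 bases before the start. A run of C and T that began further upstream, as in RPL7A, was therefore cut there and is longer than marked. The T-box letters AGGTGTGA, searched on both strands, were in a window of 2 of the 67 members, RPL10 and RPL15, which is 2.41% of the members' windows against 0.98% of all windows. The shorter GGTGTGA was in windows of the same 2 members, 2.41% of the members' windows against 3.45% of all windows. A match is a description of the letters and not a binding site.

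The table held 7365221 to 11743179 counts per library. Between 10.71% and 53.48% of them fell on a single gene, ENSG00000266658, so levels are given as CPM, that is as counts relative to the library's total, with TMM scaling, which sets the bulk of genes equal between libraries. Each plasmid's gene was high in its own 3 libraries only: TBX2 reached 4069 to 4804 CPM there and at most 4.82 elsewhere, TBX3 17700 to 25360 against at most 13.2, TBX4 7514 to 8464 against at most 3.56, and the human TBX5 gene 128.4 to 241.7 against at most 0.131. Of the line's markers, KRT18 held 43.0 to 75.6 CPM and VIM 689 to 967, while EPCAM, CDH1 and NKX2-1 stayed at or under 0.523 CPM. The leukocyte, fibroblast and endothelial markers in the table reached at most 1.05 CPM. KRT8, KRT18 and VIM were themselves lower with TBX2 and with TBX3 against both controls, with KRT8 at a log2 fold change of -0.87 for TBX2 against EV. KRT7, at no more than 2.81 CPM, went the other way with TBX2, with log2 fold changes of 1.89 and 0.98 (edgeR adjusted p of 0.00255 and 0.0275), and CDH2 was lower with TBX2 against both controls (-0.29 and -0.24). Of KRT7, KRT8 and KRT18, 2 were lower with TBX4 against EV and 1 against Ctl, and of VIM and CDH2, 1 was lower against each control. KRT8 was higher with TBX5 against Ctl, with means of 45.4 and 35.4 CPM, and no other of these 5 markers passed with TBX5. The part of these markers in the results below was not tested.

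The members took 1.485% to 3.39% of all counts, and 2.798% to 3.869% once the most counted gene was left out. Levels per kilobase used the median length of a gene's annotated transcripts, which need not be the length of its expressed mRNA. These levels compare genes only roughly, and they differed over a wide range. Among the tested members of the large subunit they ran from 14.83 CPM per kb for RPL36A to 1331 for RPL4, which lines the tunnel through which the new protein leaves, with RPL7 at 1298 and RPLP0, a protein of the stalk that recruits elongation factors, at 1023. In the small subunit RPS20 was highest at 1076 CPM per kb, followed by RPS18 at 973.5 and RPS4X at 959.3, and RPS10 was lowest of the tested members at 11.65. Of the 80 neighbouring pairs in this order, 78 had overlapping ranges over the 18 libraries, so that only coarse ranks can be read.

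Of the 84 members, 81 had more than 5 counts in at least 10 libraries and entered the tests. Among those that did not, RPL10L, a testis paralogue of RPL10, had at most 1 count and RPL3L, the muscle paralogue of RPL3, at most 10. RPS10 and RPL36A, the lowest of the tested standard members with 8.55 and 10.4 CPM, had 31.49% and 22.45% of their exon bases overlapped. Counting at default settings leaves out reads that fit several genes or several places, so these levels may understate the mRNA, and their part in the low values was not tested. Members with larger overlaps went both ways: RPL10 and RPL30, with 53.38% and 40.78%, held 240 and 217 CPM. RPL17, with 35.54%, held 15.1 CPM. Counts of a tested member ranged from 40 to 16760 in a library (median 2114), and their spread within a group was small, with a median coefficient of variation of 6.55%.

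The first comparison was between the controls, since each TBX was compared with EV and with Ctl separately. No member passed an adjusted p of 0.1 between EV and Ctl (edgeR's quasi-likelihood test, Benjamini-Hochberg over all 15576 tested genes), where 0.385% of all tested genes did (0.282% higher and 0.103% lower), while 13 members had an unadjusted p under 0.05 and DESeq2 also called 0. Of the 81 members, 68 lay above 0, with a median log2 fold change of 0.06. All EV libraries lay above all Ctl libraries in 13 members, where 7.64% of all tested genes did so, and below them in 1, where 6.9% did. The summed level of the 84 genes was 22596, 23550 and 23763 CPM in Ctl and 23525, 23936 and 25316 in EV. The highest value was that of EV replicate c, whose most counted gene took 12.4% of its counts, against 32.67% and 34.66% in the other EV libraries and 30.28% to 40.21% in Ctl. Comparisons with EV were thus made against a level 4.12% higher, by the group means, than comparisons with Ctl.

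TBX2 gave the largest number of members that fell. Against EV, 45 of the 81 tested members fell and 0 rose, where 12.6% of all tested genes fell and 14.2% rose (26.8% in all). Against Ctl, 34 fell and 0 rose, where 12.0% of all tested genes fell and 13.9% rose (25.8% in all). All TBX2 libraries lay below all libraries of the control in 43 members for EV and 32 for Ctl, where 17.8% and 16.9% of all tested genes did so, and above them in 0 and 1, where 17.7% and 18.2% did. The median log2 fold change of the members was -0.23 and -0.17, and the standard error of 1 member had a median of 0.08. The members that fell were spread over both subunits, with 30 of 50 in the large and 15 of 31 in the small subunit against EV, and 21 and 13 against Ctl. In all, 33 members fell against both controls, 21 of the large and 12 of the small subunit. In these bulk libraries a change in all cells and a larger change in the transfected cells alone cannot be told apart, nor can less mRNA per cell and fewer cells of a kind.

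The summed level showed the same in single libraries, with 19710, 22365 and 19932 CPM with TBX2. All 3 lay below the controls' range of 22596 to 25316, replicate b by little. Leaving out TBX2 replicate a gave 20 members against Ctl, and leaving out Ctl replicate b gave 22, while the other single omissions left 24 or more there and 32 or more against EV. Without TBX2 replicate b, RPS21 was called higher against Ctl (log2 fold change 0.23).

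RPL7A, a large subunit protein near the exit of the tunnel, had the largest fall against EV. It held 599, 605 and 664 CPM in Ctl, 651, 657 and 707 in EV, and 413, 482 and 396 with TBX2. All 3 TBX2 libraries lay below all 15 others. The log2 fold change was -0.64 (SE 0.085, adjusted p = 2.62e-05 by edgeR) against EV and -0.53 (SE 0.086, adjusted p = 0.000376) against Ctl.

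RPL23, which also restrains MDM2 when free of the ribosome, held 217, 237 and 241 CPM in Ctl, 228, 227 and 233 in EV, and 151, 182 and 157 with TBX2. The groups did not overlap. It fell by 0.49 and 0.50 on the log2 scale against EV and Ctl, with edgeR adjusted p of 0.000154 and 0.000334.

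RPL22, a large subunit protein with a role in T lymphocytes, held 162, 173 and 181 CPM in Ctl, 179, 174 and 163 in EV, and 110.0, 138 and 125 with TBX2. Its log2 fold changes were -0.46 and -0.47, with edgeR adjusted p of 0.000424 and 0.000931. RPS24, mutated in Diamond-Blackfan anaemia, held 375, 427 and 446 CPM in Ctl, 413, 401 and 383 in EV, and 269, 319 and 308 with TBX2, and fell by 0.42 and 0.48 on the log2 scale. Again no TBX2 library reached the controls.

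RPS15, which helps the small subunit leave the nucleus, held 177, 193 and 206 CPM in Ctl, 183, 205 and 218 in EV, and 149, 161 and 129 with TBX2. RPS3, a protein at the mRNA entry channel, held 293, 307 and 359 CPM in Ctl, 320.3, 337 and 340 in EV, and 225, 271 and 226 with TBX2. Both had a log2 fold change of -0.46 against EV, and -0.39 and -0.41 against Ctl. The calls of RPL7A, RPL23, RPL22, RPS24, RPS15 and RPS3 against both controls held without any single library of the groups compared.

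**Figure D1:**
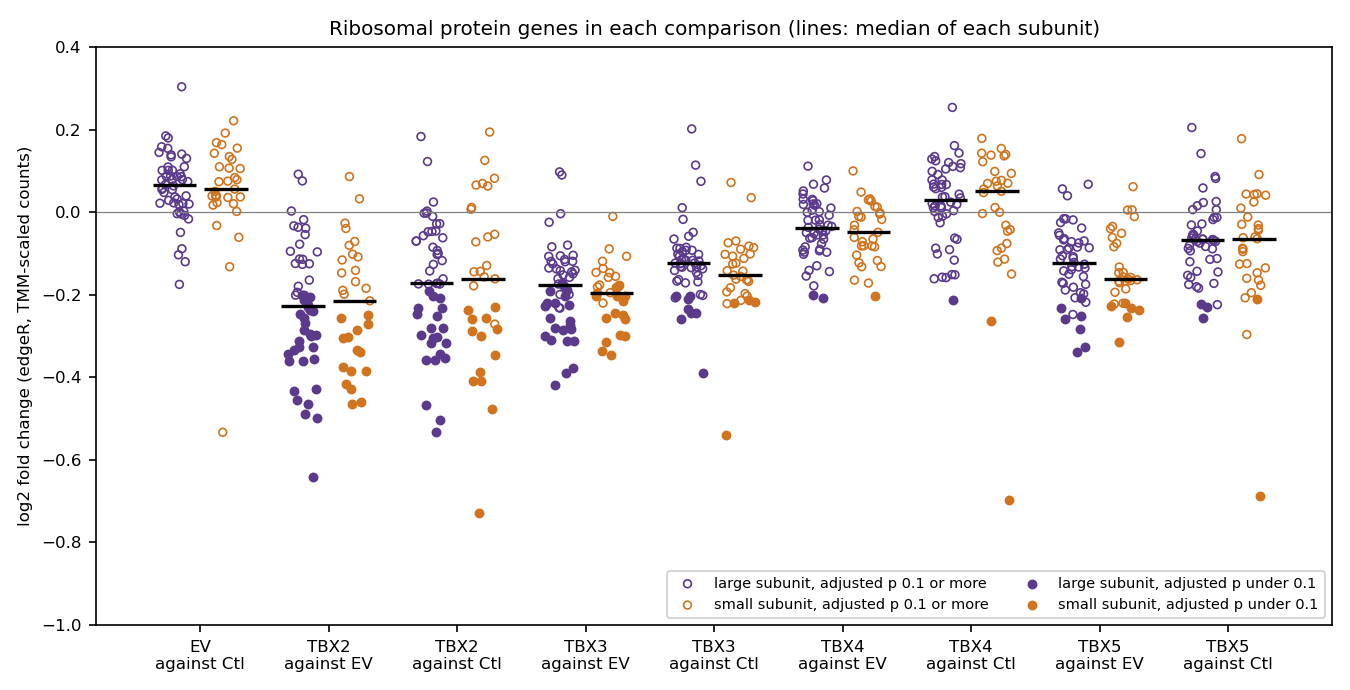
Log2 fold change of each of the 81 tested members in 9 comparisons, with TBX groups, EV and Ctl of 3 libraries each. Points are genes, filled where the adjusted p was under 0.1, colours are the subunits, and bars are the medians, which lie at -0.23 and -0.21 for TBX2 against EV and at 0.03 and 0.05 for TBX4 against Ctl.

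Fewer members fell with TBX3, and the number depended on the control. Against EV, 38 of 81 fell and 0 rose, where 5.37% of all tested genes fell and 6.79% rose (12.2% in all). Against Ctl, 12 fell and 0 rose, where 4.15% of all tested genes fell and 6.53% rose (10.7% in all). The groups did not overlap, with TBX3 lower, in 47 members for EV and 25 for Ctl, where 12.5% and 11.8% of all tested genes did so, and with TBX3 higher in 0 for either, where 13.7% and 13.9% did. The median log2 fold change was -0.18 against EV and -0.13 against Ctl, and 79 and 75 of the 81 members lay below 0. Members that fell against both numbered 11, of which 8 were of the large subunit. The summed level was 20788, 20624 and 22179 CPM, and the highest of these, replicate c, was the library in which the most counted gene took only 10.71% of counts, against 38.45% and 47.45% in replicates a and b.

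These counts rested on single libraries. Against EV, leaving out EV replicate c gave 9 members, TBX3 replicate a 15, and EV replicate b or TBX3 replicate b 22. Against Ctl, leaving out TBX3 replicate c raised the number to 33, while leaving out Ctl replicate b, Ctl replicate c, TBX3 replicate a or TBX3 replicate b lowered it to 2, 4, 4 and 5. Without TBX3 replicate c, RPL28 was called higher against both controls (log2 fold change 0.26 and 0.36), and no other member was called higher in a TBX3 comparison that left out 1 library.

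RPL41, the smallest ribosomal protein, held 184, 177 and 184 CPM in Ctl, 192, 205 and 221 in EV, and 151, 137 and 173 with TBX3. All TBX3 libraries lay below all controls, and it fell by 0.42 and 0.23 on the log2 scale, with edgeR adjusted p of 0.00174 and 0.068. The call against Ctl was lost without Ctl replicate a, b or c or TBX3 replicate a or b, with values from -0.16 to -0.25. RPS12, a small subunit protein, held 383, 382 and 406 CPM in Ctl, 400, 417 and 462 in EV, and 310.2, 322 and 373 with TBX3. Its log2 fold change was -0.35 against EV (edgeR adjusted p = 0.00788), which held without any single library, and -0.22 against Ctl (adjusted p = 0.0907), which did not hold without Ctl replicate a, b or c or TBX3 replicate a or b.

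RPL29, a heparin-binding protein of the large subunit, held 179, 171 and 210 CPM with TBX3 against 213 to 238 in the 6 controls, and its log2 fold changes were -0.27 and -0.25. Its calls were lost without EV replicate c, TBX3 replicate a or TBX3 replicate b against EV, and without Ctl replicate b, Ctl replicate c, TBX3 replicate a or TBX3 replicate b against Ctl. RPL7A and RPL22 fell by 0.31 and 0.26 against EV and by 0.20 and 0.26 against Ctl. The RPL22 call against Ctl ended without Ctl replicate b (-0.25) or TBX3 replicate a (-0.23), and that of RPL7A against Ctl ended without any library of these groups except TBX3 replicate c, at -0.16 to -0.23.

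TBX4 left the members near the controls. Of 81 members, 3 fell against EV (RPL22, RPS24 and RPL7A) where 4.21% of all tested genes fell and 4.95% rose (9.16% in all), and 3 fell against Ctl (RPS16, RPS24 and RPL22) where 5.32% fell and 6.35% rose (11.7% in all). Non-overlap with TBX4 lower was found in 7 members for EV and 3 for Ctl, where 11.6% and 12.0% of all tested genes showed it. With TBX4 higher it was found in 1 member for EV and 13 for Ctl, where 11.7% and 13.3% of all tested genes showed it. None of the 81 rose in edgeR's test, while 10 members had an unadjusted p under 0.05 against EV and 15 against Ctl in either direction, and DESeq2 called 3 and 2 members, with 0 higher. The median log2 fold change was -0.04 against EV and 0.04 against Ctl, so that the direction of the group turned with the control. With library totals in place of TMM, 77 members passed against Ctl, 76 of them higher, and RPL22 and RPS24 were at 0.15 and 0.10, while the median of all genes then lay at 0.36. The summed level was 24594, 23542 and 22576 CPM, which overlapped both controls. Against EV, the number of members called was 0 without EV replicate a or TBX4 replicate b, 1 without EV replicate b or TBX4 replicate c, the library with the mixed title, and 9 without TBX4 replicate a. Against Ctl it was 5 without Ctl replicate a, TBX4 replicate a or TBX4 replicate c. Members called higher against Ctl in such fits included RPL17 without TBX4 replicate b (log2 fold change 0.34) and RPSA without TBX4 replicate c (0.19).

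RPS24 held 362, 337 and 340 CPM with TBX4, below all 6 controls. It fell by 0.20 against EV (edgeR adjusted p = 0.0415) and by 0.26 against Ctl (adjusted p = 0.017). RPL22 held 152, 147 and 147 CPM, also below all controls, and fell by 0.21 against each, with edgeR adjusted p of 0.031 and 0.0365. The RPS24 call ended without TBX4 replicate b (-0.18 against EV, -0.25 against Ctl) and, against EV, without EV replicate a (-0.18), EV replicate b (-0.20) or TBX4 replicate c (-0.19). That of RPL22 ended without TBX4 replicate b (-0.20 against either control), EV replicate a (-0.18), EV replicate b (-0.20), Ctl replicate b (-0.21) or Ctl replicate c (-0.17). The RPL7A call against EV (log2 fold change -0.20) ended without any library except TBX4 replicate a, at -0.15 to -0.23.

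TBX5 gave counts between those of TBX3 and TBX4 against EV. Against EV, 13 of 81 members fell where 4.34% of all tested genes fell and 4.6% rose (8.94% in all). Against Ctl 5 fell, where 3.27% fell and 4.35% rose (7.62% in all), and 0 members rose in either. TBX5 lay below the control without overlap in 32 members for EV and 17 for Ctl, where 12.4% and 11.6% of all tested genes did, and above it in 0 and 1, where 12.4% and 12.7% did. The median log2 fold changes were -0.14 and -0.07. The summed level was 22205, 21890 and 22106 CPM, a narrow range just below the lowest control at 22596, although the most counted gene took 22.5% of counts in replicate a and 53.48% and 52.68% in b and c. Against EV, the number was 27 without TBX5 replicate a and 8, 4, 3, 6 and 5 without EV replicates a, b and c and TBX5 replicates b and c. Against Ctl it was 10 without TBX5 replicate a, 1 without Ctl replicate b, Ctl replicate c or TBX5 replicate b, and 2 without TBX5 replicate c.

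The 4 members that fell against both controls with TBX5 were RPL7A, RPL35, RPS6 and RPL23. RPL7A held 509, 541 and 545 CPM, below all 6 controls, and fell by 0.34 and 0.23 on the log2 scale, with edgeR adjusted p of 0.00613 and 0.0613. RPL35 held 288, 329 and 346 CPM, against 356 to 399 in the controls, with log2 fold changes of -0.25 and -0.26. RPS6, the small subunit protein phosphorylated by the S6 kinases, held 487, 493 and 504 CPM against 540 to 595 in the controls, with log2 fold changes of -0.23 and -0.21. RPL23 held 180.4, 206 and 211 CPM and its edgeR adjusted p was 0.09 and 0.0992. For these 4 genes, only the RPL7A call against EV held whichever single library was left out. Against Ctl, all 4 calls ended without Ctl replicate b, Ctl replicate c or TBX5 replicate b, at -0.18 to -0.27, and against EV those of RPL35, RPS6 and RPL23 ended without EV replicate a, b or c, at -0.19 to -0.26. The calls of RPL7A and RPS6 against Ctl and of RPS6 against EV also ended without TBX5 replicate c (-0.25, -0.23 and -0.24), that of RPS6 against EV without TBX5 replicate b (-0.23), and those of RPL23 without any 1 library, at -0.14 to -0.27.

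**Figure D2:**
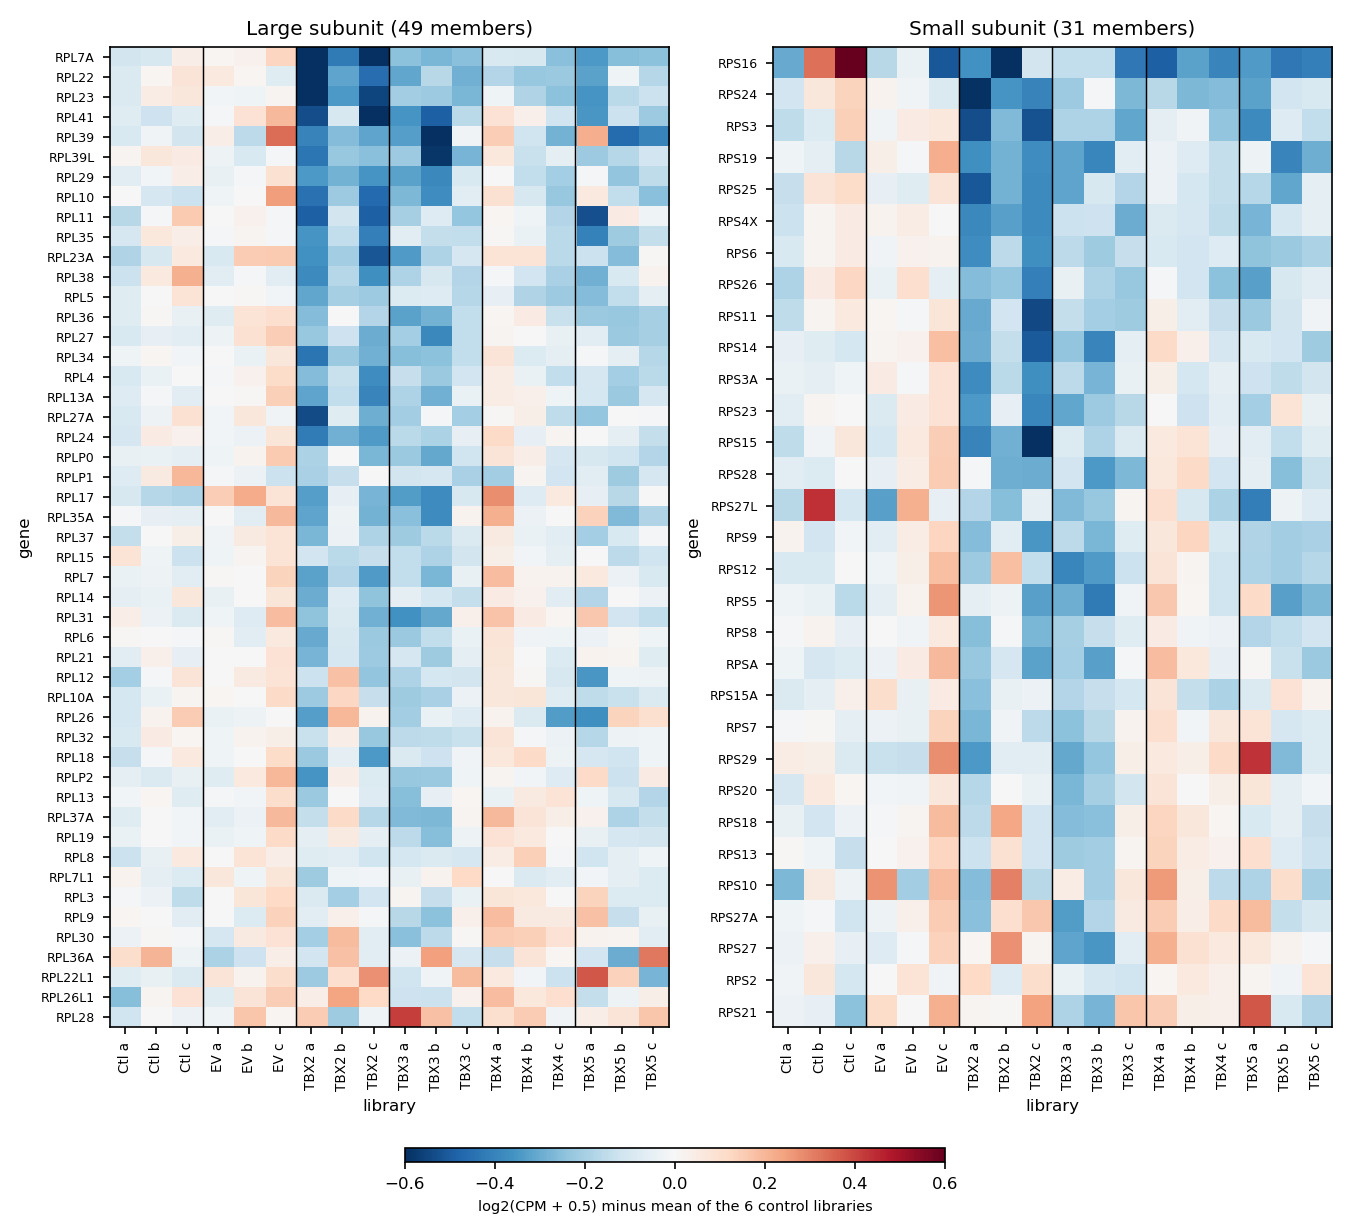
Levels of tested members, 1 left out, in each of the 18 libraries, as log2(CPM + 0.5) minus the gene's mean over the 6 control libraries, with 1 row per gene (large subunit left, small subunit right) and colours cut at -0.6 and 0.6. Blue (lower) is deepest, by the median of the tested members, in TBX2 replicates a and c (-0.26 and -0.27) and TBX3 replicates a and b (-0.20 and -0.21). Most members also lie below 0 in other columns, among them Ctl replicate a (70 of the 81 tested) and TBX5 replicates b and c (69 and 72). The darkest cells include RPS16 in TBX2 replicate b (-0.89), RPL7A and RPL41 in TBX2 replicate c (-0.71 and -0.67) and RPL22 in TBX2 replicate a (-0.64).

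Differences among the 4 TBX groups were then tested directly, by an F test with 3 degrees of freedom whose contrasts use no control. Members differed among the TBX groups in 34 of 81 cases, where 22.7% of all tested genes did. They were 21 of 50 in the large and 13 of 31 in the small subunit. Of these 34, TBX2 had the lowest mean in 26 and TBX3 in the other 8, while TBX4 had the highest mean in 32. The number fell to 12 without TBX4 replicate a, 17 without TBX4 replicate b and 19 without TBX2 replicate a or c.

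RPL7A had the smallest p of all members in this test (edgeR adjusted p = 0.000613), followed by RPS15 (0.000911) and RPL24 (0.00119). RPL24, a protein of the bridge between the subunits, held 150, 164 and 158 CPM with TBX2 and 176 to 217 in the other 9 TBX libraries. The TBX2 libraries lay below all 15 others. RPL7, with 777, 860 and 767 CPM with TBX2 and 1105, 987 and 988 with TBX4, and RPL23 had edgeR adjusted p of 0.00521 and 0.00734.

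RPS27, a zinc-finger protein of the small subunit, showed another order (edgeR adjusted p = 0.00574). It held 196, 192 and 234 CPM in the TBX3 libraries, 247, 296 and 247 in those of TBX2, 283, 260.0 and 255 in those of TBX4, and 255, 248 and 243 in those of TBX5. The TBX3 libraries were below all others of the TBX groups, and the TBX2 libraries were not below the controls, which held 232 to 269. Against EV it fell by 0.26 with TBX3 (edgeR adjusted p = 0.0452) and had a log2 fold change of 0.09 with TBX2. The TBX3 calls ended without EV replicate c (-0.19), TBX3 replicate a (-0.22) or TBX3 replicate b (-0.20) against EV, and without any library but TBX3 replicate c against Ctl, at -0.17 to -0.23. The test among the TBX groups held without any single library for RPL7A, RPS15, RPL24, RPL7, RPL23 and RPS27.

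**Figure D3:**
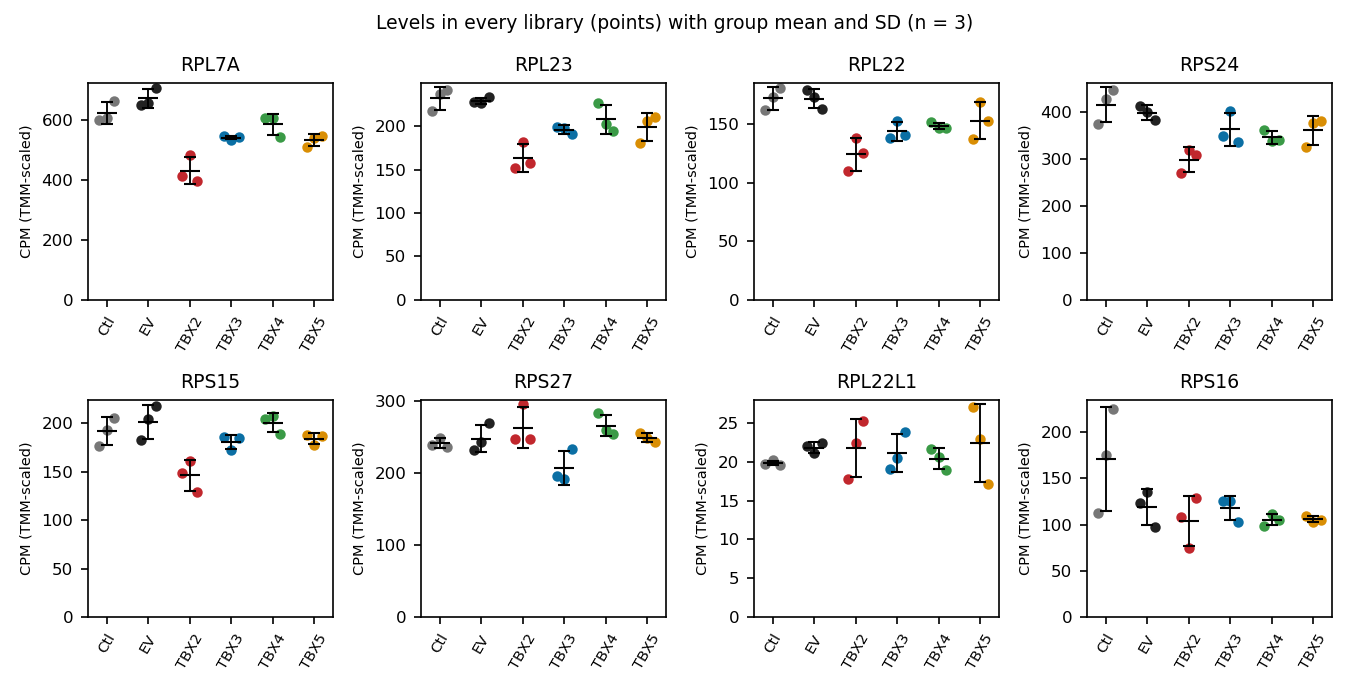
CPM (TMM-scaled) of 8 members in every library by group, with the group mean and SD (n = 3) as bars. RPL7A, RPL23, RPL22, RPS24 and RPS15 are lowest with TBX2, RPS27 is lowest with TBX3, RPL22L1 has no TBX group apart from the controls, and RPS16 is high in Ctl replicates b and c.

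TBX2 and TBX3 share their controls, so their lists were compared only where no library was shared. Of the 45 members that fell with TBX2 against EV and the 12 that fell with TBX3 against Ctl, 8 were shared, which is 17.78% and 66.67% of each. Of all 81 tested members, 55.56% fell with TBX2 and 14.81% with TBX3 in these comparisons. Of the 34 with TBX2 against Ctl and the 38 with TBX3 against EV, 20 were shared, 58.82% and 52.63% of each, where 41.98% and 46.91% of all 81 fell. The shares are a description, with no test.

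Over the 8 comparisons with a control, 24 of the 81 members passed in none and 57 in at least 1, where 45.4% of all tested genes passed in at least 1. RPL7A passed in 7, RPL22 and RPL23 in 6, and RPL41 and RPS6 in 5. The study lists RPL7A, RPL23 and RPS24 among its common genes, picked on these libraries, so their direction here is no independent evidence. The study used DESeq2 and does not report calls against EV and Ctl apart, so the edgeR results here are not a like comparison. RPL7A did not pass for TBX4 against Ctl (log2 fold change -0.09), RPL23 passed for TBX4 against neither control (-0.14 and -0.16), and RPS24 passed for TBX3 and TBX5 against neither (-0.14 to -0.21).

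RPS16 moved in another way, and it was singled out after its values were seen. It fell against Ctl with every TBX, by 0.73, 0.54, 0.70 and 0.69 on the log2 scale with TBX2, TBX3, TBX4 and TBX5 (edgeR adjusted p of 0.0128, 0.0332, 0.00272 and 0.0221), and had log2 fold changes of only -0.20 to -0.01 against EV. Ctl held 113, 175 and 225 CPM, EV 124, 135 and 97.5, and the 12 TBX libraries 74.8 to 129. Only Ctl replicates b and c lay above all other libraries. EV against Ctl was -0.53 (edgeR adjusted p = 0.185), with -0.76 and an adjusted p of 9.89e-05 without Ctl replicate a, and -0.29 and 0.328 without Ctl replicate c. DESeq2 gave an adjusted p of 0.169 to 0.323 for the TBX comparisons, and without Ctl replicate c edgeR gave -0.30 and an adjusted p of 0.188 for TBX3 (-0.44 and 0.116 without TBX3 replicate c). The calls with TBX2, TBX4 and TBX5 held without Ctl replicate c, at -0.48, -0.45 and -0.44.

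The L paralogues stood beside their partners at far lower levels. RPL22 was 6.45 ± 0.394 (SD, n = 3) times as abundant per kilobase as RPL22L1 in Ctl, 5.86 ± 0.383 times in EV and 4.29 ± 0.520 times with TBX2. The size of such a ratio rests on the median annotated transcript lengths used, while its relative change between groups does not. RPL22L1 itself held 19.8, 20.2 and 19.6 CPM in Ctl, 22.0, 21.1 and 22.4 in EV and 17.8, 22.4 and 25.3 with TBX2, and its log2 fold changes with TBX2 were -0.02 and 0.12. RPL26L1, RPL7L1 and RPS27L did not pass in any comparison, with log2 fold changes from -0.30 to 0.18, at 24.7, 155 and 12.4 CPM on average. Of their partners, RPL26 passed in none. RPL3 fell by 0.20 with TBX2 against EV (edgeR adjusted p = 0.0679), and this call ended without EV replicate a, b or c or TBX2 replicate b, at an adjusted p of up to 0.207. RPL10 fell by 0.46 and 0.30 with TBX2 against EV and Ctl, which held without any single library, and by 0.31 with TBX3 against EV, which did not hold without EV replicate c or TBX3 replicate a. RPL7 fell by 0.33 and 0.23 with TBX2 against EV and Ctl, and its call against Ctl ended without Ctl replicate a or b or TBX2 replicate a or c.

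RPL39L, a paralogue of RPL39 known from the testis, was the exception. It held 20.3, 21.2 and 20.9 CPM in Ctl, 19.7, 18.8 and 19.97 in EV, 14.8, 17.1 and 16.8 with TBX2, and 17.3, 13.3 and 16.5 with TBX3. Neither group overlapped the controls, and the log2 fold changes were -0.27 and -0.36 with TBX2 and -0.30 and -0.39 with TBX3, with edgeR adjusted p of 0.0673, 0.0182, 0.0747 and 0.0261. DESeq2 did not make the calls against EV, with log2 fold changes of -0.27 and -0.31. In edgeR they ended without EV replicate a, b or c, without TBX2 replicate a (-0.20) for TBX2 and without TBX3 replicate b (-0.22) for TBX3, and the TBX3 call against Ctl ended without TBX3 replicate b (-0.31). RPL39 was 4.98 ± 0.121 (SD, n = 3) times as abundant per kilobase as RPL39L in Ctl, 5.93 ± 0.882 times in EV, and 5.36 ± 0.202 and 5.62 ± 0.771 times with TBX2 and TBX3, between the control means.

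Among the stalk proteins, RPLP0 held 733, 692 and 789 CPM with TBX3 against 821 to 954 in the controls and fell by 0.26 against EV (edgeR adjusted p = 0.0333), with -0.16 (adjusted p = 0.214) against Ctl. RPLP2 fell by 0.22 with TBX3 against EV (edgeR adjusted p = 0.0742). RPLP1 did not pass in any comparison, with log2 fold changes of -0.20 to -0.04 for the TBX groups. Both calls ended without EV replicate c (-0.21 and -0.14), TBX3 replicate a (-0.26 and -0.18) or TBX3 replicate b (-0.22 and -0.19), and that of RPLP2 also without EV replicate b (-0.23).

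The balance of the large and small subunit was compared next. The ratio of summed counts, which no scaling of libraries can change, was 1.625, 1.605 and 1.622 in Ctl, 1.623, 1.618 and 1.626 in EV, and 1.606, 1.613 and 1.577 with TBX2. It was 1.665, 1.64 and 1.637 in the TBX3 libraries, 1.649, 1.648 and 1.606 in those of TBX4, and 1.603, 1.644 and 1.631 in those of TBX5. Only TBX3 lay above all 6 controls, by 1.55% and 1.84% over the means of EV and Ctl, and the mean with TBX2 was 1.44% and 1.16% below them. The log2 difference between a TBX and a control was 0.003 to 0.026 in size, beside a pooled SD of 0.010 to 0.017. As a score over the members it got no test.

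Other measures of the ratio gave other directions. Over the 25 large and 13 small subunit members with no exon overlapped by another gene, the log2 ratio was 0.876 to 0.899 in the 6 control libraries and 0.92 to 0.961 in the 12 TBX libraries, with no overlap, and the group differences were 0.05 to 0.07. With the median log2 level in place of the sum, the large subunit was lower relative to the small with TBX2, TBX4 and TBX5 than in either control, by 0.04 to 0.15. For TBX3 this difference was -0.04 against EV and 0.04 against Ctl. The measures thus differed in direction for TBX2, TBX4 and TBX5 against both controls and for TBX3 against EV.

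**Figure D4:**
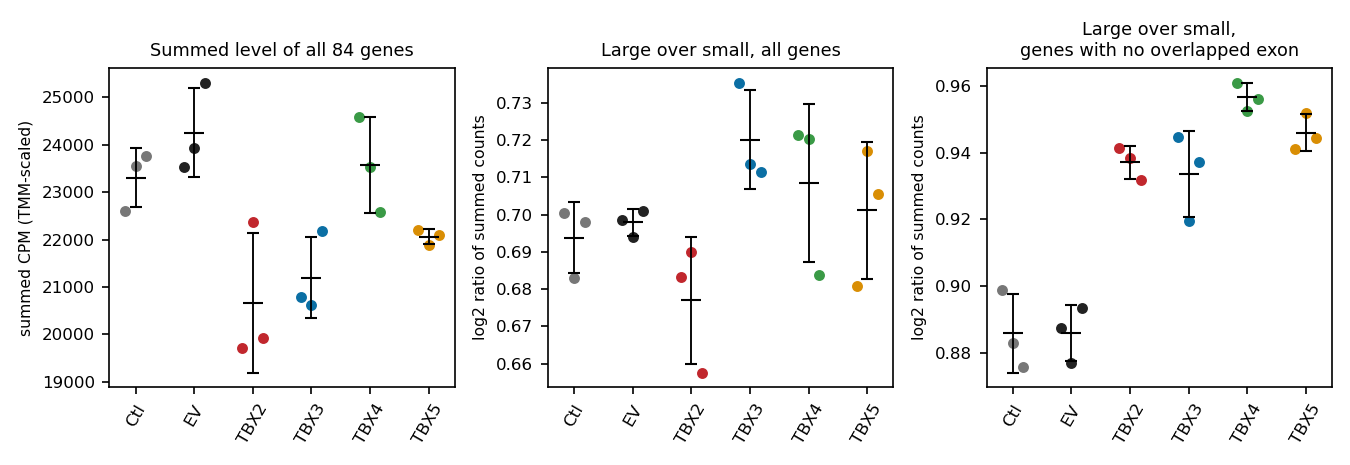
Left, summed CPM of the 84 genes per library; middle and right, log2 ratio of summed large to small subunit counts over all members and over those with no overlapped exon, with group means and SD (n = 3) on axes that do not start at 0. Summed levels are lowest with TBX2 and TBX3, and on the right all 12 TBX libraries lie above all 6 controls.

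Features that the rule did not use were set beside the changes. Against EV with TBX2, members with a tract in the window had a median log2 fold change of -0.23 (31 of 54 called) and those with a window but no tract had -0.20 (6 of 12). Those with no exon overlapped by another gene had -0.21 (18 of 36 called) and those with an overlap -0.24 (27 of 45). Members with fewer than 10 numbered pseudogenes in the table had -0.25 (21 of 37 called), those with 10 to 29 had -0.17 (11 of 26), and those with at least 30 had -0.24 (13 of 18). The 41 members of higher level had -0.24 and the 40 of lower level -0.22. These are descriptions, with no test.

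Pseudogenes copied from these mRNAs share their sequence. Of 1592 numbered ribosomal protein pseudogenes in the table, 142 were tested. Against EV with TBX2, 5 rose and 0 fell, where 14.2% of all tested genes rose and 12.6% fell. Their median log2 fold change was 0.10, where members had -0.23. Against Ctl, 2 rose and 3 fell, where 13.9% of all tested genes rose and 12.0% fell. The median of the pseudogenes was then -0.12. Their summed level was 382 to 514 CPM, and their counts equalled 1.66% to 2.53% of the members' counts, with the highest share in TBX2 replicate a.

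Ribosomal proteins outside the symbol rule were looked at in the same fits. They included FAU, which carries a ubiquitin-like protein before the ribosomal protein, RPL36AL, and RACK1, a scaffold on the small subunit. RACK1 fell by 0.47, 0.30 and 0.31 with TBX2, TBX3 and TBX5 against EV (edgeR adjusted p of 0.000519, 0.0107 and 0.0133) and by 0.39, 0.22 and 0.23 against Ctl. RPL36AL fell by 0.48 and 0.51 with TBX2 against EV and Ctl (edgeR adjusted p of 0.000234 and 0.000416). FAU fell by 0.29 with TBX2 and 0.18 with TBX3 against EV (edgeR adjusted p of 0.013 and 0.0986). With TBX2 it had a log2 fold change of -0.13 against Ctl (adjusted p = 0.348).

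Other mRNAs known to begin with a TOP tract were partly lowered as well. Of 14 such genes, 13 were tested, and 0 were called higher throughout. With TBX2, 9 fell against EV and 7 against Ctl, where 12.6% and 12.0% of all tested genes fell. With TBX3, 4 and 2 fell, where 5.37% and 4.15% of all tested genes did. With TBX4, 2 and 4 fell, where 4.21% and 5.32% did. With TBX5, 3 and 3 fell, where 4.34% and 3.27% did. EIF4B, an initiation factor that helps unwind mRNA, fell against EV in every TBX group, by 0.56 (TBX2), 0.21 (TBX3), 0.23 (TBX4) and 0.31 (TBX5) on the log2 scale (edgeR adjusted p of 8.6e-05, 0.0507, 0.0245 and 0.00791). EEF1A1, the factor that brings tRNA to the ribosome, fell by 0.58, 0.31 and 0.31 with TBX2, TBX3 and TBX5 against EV and also passed against Ctl in these groups. PABPC1 and TPT1, from the same list, had log2 fold changes of 0.09 and 0.08 with TBX2 against EV and did not pass.

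Chaperones that guard single ribosomal proteins gave few calls, and regulators of these genes were called in both directions. Of 8 chaperones and loading factors, only PDCD2L, a carrier of RPS2, passed, against EV with TBX2, TBX3 and TBX4 (log2 fold change -0.60, -0.40 and -0.36). Of all tested genes, 12.6%, 5.37% and 4.21% fell in these comparisons. Of 11 regulators, 2 and 1 fell with TBX2 against EV and Ctl, where 12.6% and 12.0% of all tested genes fell. With TBX3 against EV 2 rose and 2 fell, where 12.2% of all tested genes were called. With TBX5 against EV 1 rose and 3 fell, where 8.94% of all tested genes were called. The remaining comparisons of a TBX with a control gave 1 or 2 calls, where 7.62% to 11.7% of all tested genes were called. MTOR fell against EV by 0.19, 0.16 and 0.27 with TBX3, TBX4 and TBX5 (edgeR adjusted p of 0.0926, 0.0985 and 0.0223) and against Ctl by 0.25 with TBX5 (0.0424), and had -0.16 with TBX2 against EV (adjusted p = 0.12). LARP1 did not pass in any comparison. MYC, a known activator of ribosome production, had log2 fold changes of -0.10 with TBX2 and 0.10 with TBX3 against EV, rose by 0.25 with TBX3 against Ctl and fell by 0.23 with TBX5 against EV (edgeR adjusted p of 0.0283 and 0.0565).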

How the data were processed

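RNA-seq of 18 NCI-H1299 libraries in 6 groups of 3 was analysed from the deposited table of counts per Ensembl gene. Per the labels and the study's methods, the authors converted base calls with bcl2fastq 1.8.4, aligned the paired reads to GRCh37 with STAR 2.3.0 and made the counts with featureCounts at default settings, with no normalization. Groups came from the sample titles. A gene was tested where 10 or more libraries held over 5 counts of it (15576 of 63677 genes), with edgeR 4.0.16 (quasi-likelihood, R 4.3.3), TMM factors over all libraries, a fit of 3 against 3 per comparison, 1 fit of all 18 for differences among TBX groups, and Benjamini-Hochberg adjustment over all tested genes at 0.1. Standard errors were derived from the fold change and its F statistic. The fits were tested on simulated data. Gene models were GENCODE lifted to GRCh37, and start windows RefSeq on GRCh38.p14. Members, lists and tests were chosen with earlier results of these data known. Members named in full were the 6 with the largest mean change per TBX among those called against both controls, the 6 with the smallest p among the TBX groups, paralogue pairs, stalk genes, RPS24, RPL23 and RPL7A, and the 3 highest and lowest by level in each subunit; RPS16 was added after its values were seen. Alternatives were other scalings, other filters, DESeq2 1.42.0, pooled controls, a single fit, a replicate block, a length correction and leaving out each library. Depth was 7365221 to 11743179 counts per library, and the precision it gives covers counting error only. Some items are not reported here.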

Additional observations from a re-analysis of the deposited data

How the results depend on the processing

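Of the 1292 alternative fits of members named in a comparison, 1015 kept the direction and the call, 275 lost the call and 2 changed direction, both with library totals as the scale, where TBX4 against Ctl gave 0.15 for RPL22 and 0.10 for RPS24. Library totals moved the median of all genes by -0.40 to 0.36, and the members' median then lay 0.23 and 0.16 (TBX2 against EV and Ctl), 0.18 and 0.12 (TBX3) below that of all genes. With them 0 members were called against EV for any TBX, against Ctl for TBX3 or TBX5, and among the TBX groups, 1 for TBX2 against Ctl, and 77 for TBX4 against Ctl, 76 of them higher. Totals without the most counted gene called 6 (TBX4 against EV), 20 (TBX5 against EV), 1 (EV against Ctl) and 21 (among TBX groups). With no filter 21 (TBX5 against EV), 11 (TBX5 against Ctl) and 1 (EV against Ctl) were called. DESeq2 called 1 (TBX5 against Ctl), 1 fit of all libraries 0 (TBX4 against EV), and pooled controls 32 (TBX3 against Ctl) and 12 (TBX5 against Ctl). The cause was not tested.

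The letters a, b and c come from the sample titles. Same-letter libraries of different groups had a mean correlation of deviations of -0.000921, and 5 of 18 libraries correlated best with their own letter. A mean over all groups does not show whether libraries of particular groups were paired. With the replicate block 70 and 6 members were called for TBX3 against EV and Ctl and 9 for TBX5 against Ctl; the block with a length correction gave 65, 6 and 10. The block changed no other count by over 1.5 times.

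Leaving out 1 library gave 32 to 60 and 20 to 48 calls for TBX2 against EV and Ctl, 9 to 56 and 2 to 33 for TBX3, 0 to 9 and 2 to 5 for TBX4, 3 to 27 and 1 to 10 for TBX5, 0 to 1 for EV against Ctl (RPS16, without Ctl replicate a), and 12 to 46 among the TBX groups.

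The log2 ratio of large to small subunit moved with its definition. By the unweighted median of log2 levels it differed by -0.1281 and -0.05733 for TBX2 against EV and Ctl, -0.03521 for TBX3 against EV, -0.1129 and -0.04207 for TBX4, -0.1465 and -0.07573 for TBX5, and 0.07081 for EV against Ctl. Without members whose exons other genes overlap it differed by 0.05123 and 0.0513, 0.04783 and 0.0479, 0.0707 and 0.07077, and 0.06 and 0.06007 for TBX2, TBX3, TBX4 and TBX5. Over the 8 comparisons with a control, 8 of 481 changes under 0.2 on the log2 scale were called and 145 of 167 at or over it.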
